A study of Mus musculus with 6 samples.

Results

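Chromatin remodelers and enzymes that add or remove histone methyl marks were examined in CD4+ T cells sorted from mouse liver. Members were the rows of the count table whose gene symbol starts with Kmt2, Kmt5, Kdm, Arid or Smarc, or with Chd and a digit. Such rows numbered 60, and the 1 row with a numbered suffix, a further copy of Kdm5a, was left out, which gave 59 members of 23505 rows. The mice were wild type and had all been given ConA (concanavalin A), a jack bean lectin used to set off liver inflammation driven by T cells. The ConA group (n = 3 libraries) was gavaged with phosphate-buffered saline, and the ConA+SIM group (n = 3) with 30 mg/kg of simvastatin, which blocks HMG-CoA reductase in cholesterol synthesis. Gavage was daily for 5 days before ConA, 1 h before it and 24 h after it. Cells that carried CD3 and CD4 and lacked CD8 and NK1.1 were sorted. The labels give neither sex nor age, nor whether libraries of a group came from separate mice, and the spread that p-values rest on may be technical.

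DNA in the nucleus is wound around histones, and these proteins decide which stretches can be read. KMT2 enzymes place methyl groups on lysine 4 of histone H3 at promoters and enhancers, KMT5 enzymes methylate histone H4, and KDM enzymes remove methyl groups. SWI/SNF, ISWI and CHD complexes burn ATP to slide or evict nucleosomes, and ARID proteins carry a DNA-binding domain that several of these complexes use. In T cells such factors open cytokine and effector genes after activation and help to hold the resting state.

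No member passed the test in either direction in the comparison of ConA+SIM with ConA (edgeR quasi-likelihood test, adjusted p under 0.05 over all 10509 tested genes). The smallest adjusted p of a member was 0.214, for Smarca4, the ATPase that drives SWI/SNF complexes. Over all tested genes 0.542% were called higher and 0% lower. Most members had lower values in ConA+SIM: 36 of 53 tested members (67.9%), against 52% of all tested genes. Their median log2 fold change was -0.33 (-0.17 without ConA+SIM replicate 2), against -0.04 for all tested genes, and their quartiles were -0.64 and 0.10 (all tested genes -0.62 and 0.55). CPM is a gene's count scaled to the TMM-adjusted library total, and values are given in the order of replicates 1, 2 and 3. Together the 59 members held 6354, 7239 and 7130 CPM in the ConA libraries. The ConA+SIM libraries held 5584, 6166 and 5551 CPM, so that the groups did not overlap in this sum. The sum gives most weight to genes with high counts. It was not corrected for transcript length and was not set against sums over other genes.

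Over all tested genes, the log2 fold change tended to fall with transcript length. Tested members had a median transcript length of 6113 nt, against 2988 nt for all tested genes, and 36 of 53 lay in the longest of 5 length bins with nearly equal numbers of genes (4909 nt and more). The 2092 genes of any function in that bin had a median log2 fold change of -0.31, and 65.0% had lower values in ConA+SIM. The 36 members among them had a median of -0.31, and 23 had lower values. In the shortest bin, of 1697 nt or less, the median of all genes was 0.34. In the bin of 2557 to 3495 nt, the 10 members had a median of -0.56 and 8 were lower. All genes of that bin had a median of -0.09, and 53.7% were lower. In the bin of 3496 to 4906 nt, the 6 members had a median of -0.38 and 5 were lower. For all genes there the median was -0.18, and 58.5% were lower. The part of transcript length in the members' lower values was not tested. When each library's trend with transcript length was removed, the members' median was 0.03 and 25 of 53 had lower values. With length and GC content both removed, the median was 0.12 and 20 of 53 had lower values.

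**Figure D1:**
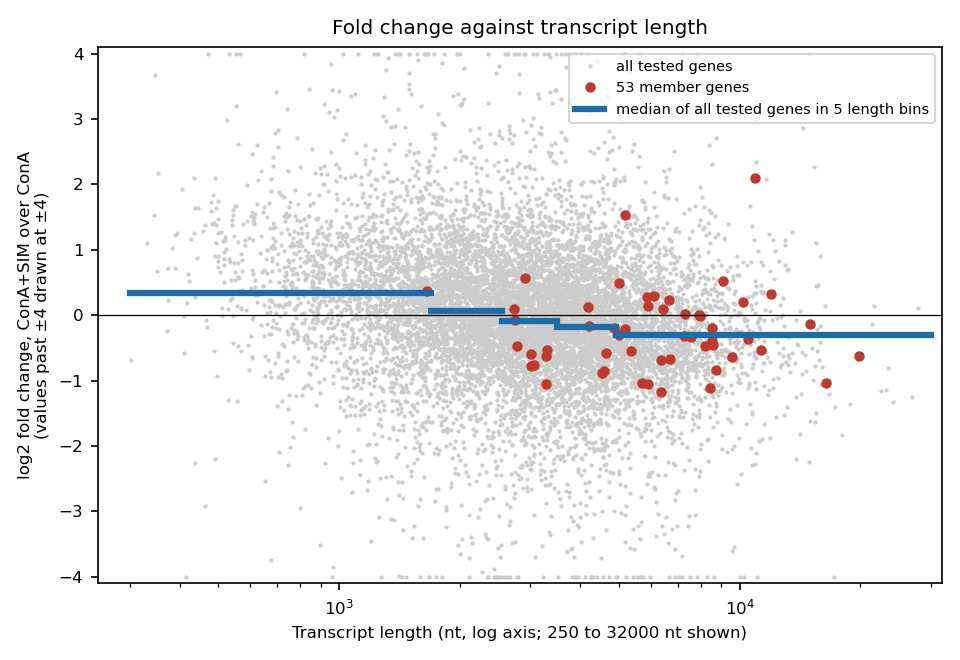
Log2 fold change of ConA+SIM over ConA (vertical axis) against transcript length in nt (log axis) for all tested genes (grey) and the 53 tested members (red), with the median of all tested genes in 5 length bins (blue). The blue medians run from 0.34 in the shortest bin to -0.31 in the longest, where 36 of the members lie.

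The libraries were compared by depth and by marker genes. Total counts ran from 17549429 to 25031862 per library. T cell markers (7 genes) summed to 2016 to 3189 CPM in ConA and 2878 to 3002 CPM in ConA+SIM, with Cd4 at 441 to 766 CPM and Cd3e at 154 to 409 CPM, while Cd8a was at most 15.9 CPM. The CD8 markers (2 genes) summed to 4.72 to 33.1 CPM in ConA and 26.3 to 54.1 CPM in ConA+SIM. In ConA+SIM replicate 2 a count of 0 was found for 18.4% of tested genes, while the other libraries had 2.76% to 9.98%. In summed CPM, NK cell markers (6 genes, Ncr1 and Klra8 at 0 in all libraries) ran from 22.0 to 109 in ConA and 191 to 247 in ConA+SIM, and erythroid markers (5 genes) from 43.8 to 115 and 229 to 343. Kupffer cell and macrophage markers (10 genes) ran from 883 to 2118 in ConA and 245 to 1193 in ConA+SIM, endothelial markers (7 genes) from 252 to 1622 and 271 to 488, hepatocyte markers (8 genes, Cps1 at 0 in all libraries) from 23.5 to 86.2 and 77.8 to 161, and B cell markers (5 genes) from 99.1 to 960 and 314 to 677. The part of these markers in the members' values was not tested. In bulk samples fewer cells of a type and less RNA per cell cannot be told apart.

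DESeq2, a second count test, called 2 members lower (3.77%; 1.89% of all tested genes were called lower) and 0 higher (3.39% of all tested genes), and gave no adjusted p for 10 members. The 2 were Smarca4 (DESeq2 adjusted p = 0.00128) and Kmt2a (0.0401), the H3K4 methyltransferase also known as MLL1. Both lie on chromosome 9 of GRCm38, Smarca4 at 21616106 to 21704230 and Kmt2a at 44803355 to 44881352. The DNA just before the outermost RefSeq start of each gene is shown because these are the members that DESeq2 called. Sequences are from RefSeq (GRCm38.p6), 187 bases each, at chr9:21615919-21616105 on the plus strand and chr9:44881353-44881539 on the minus strand, and capitals mark the GC box in either direction (GGGCGG or CCGCCC).
Smarca4: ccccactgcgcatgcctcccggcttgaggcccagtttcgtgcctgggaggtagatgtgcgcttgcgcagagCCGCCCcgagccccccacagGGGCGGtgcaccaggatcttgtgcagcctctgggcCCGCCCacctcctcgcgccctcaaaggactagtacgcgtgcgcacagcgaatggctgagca
Kmt2a: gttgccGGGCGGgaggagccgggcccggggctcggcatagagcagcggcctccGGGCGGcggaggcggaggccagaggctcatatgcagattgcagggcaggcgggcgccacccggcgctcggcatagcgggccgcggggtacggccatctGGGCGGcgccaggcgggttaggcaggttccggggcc

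Each stretch holds 3 GC boxes, and GC content is 68.4% for Smarca4 and 77.0% for Kmt2a. Among the 38 tested members with a promoter in the RefSeq table, 27 (71.1%) had a GC box on either strand in the 250 bases before the start, against 59.6% of 8285 promoters of tested genes. The core letters of NFAT sites, GGAAA on either strand, are of interest because the series title names NFATC3. They occurred in 19 of the 38 member promoters (50%) and in 54.9% of all 8285. The full cyclic AMP response element, TGACGTCA, occurred in 0 of 38 and 2.84%, and the CCAAT box, CCAAT or ATTGG, in 12 of 38 and 37.4%. These are matches of letters in a window and name no bound factor.

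At an unadjusted p under 0.05, 5 members were lower (9.43%; 3.54% of all tested genes) and 0 higher (5.31% of all tested genes). The groups did not overlap, with lower values in ConA+SIM, in 6 members (11.3%; 8.57% of all tested genes), namely Smarca4, Smarcc2, Kmt2b, Kmt5b, Kdm2a and Kdm7a. They did not overlap in the other direction in 3 (5.66%; 9.18%), Arid4a, Kdm5a and Smarca5. The separation of Kdm5a was lost when its 2 rows were summed. Limma-voom called 0 members with and without sample quality weights, where it called 1.14% of all tested genes higher and 0.0761% lower without the weights and 1.21% and 0.0952% with them.

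**Figure D2:**
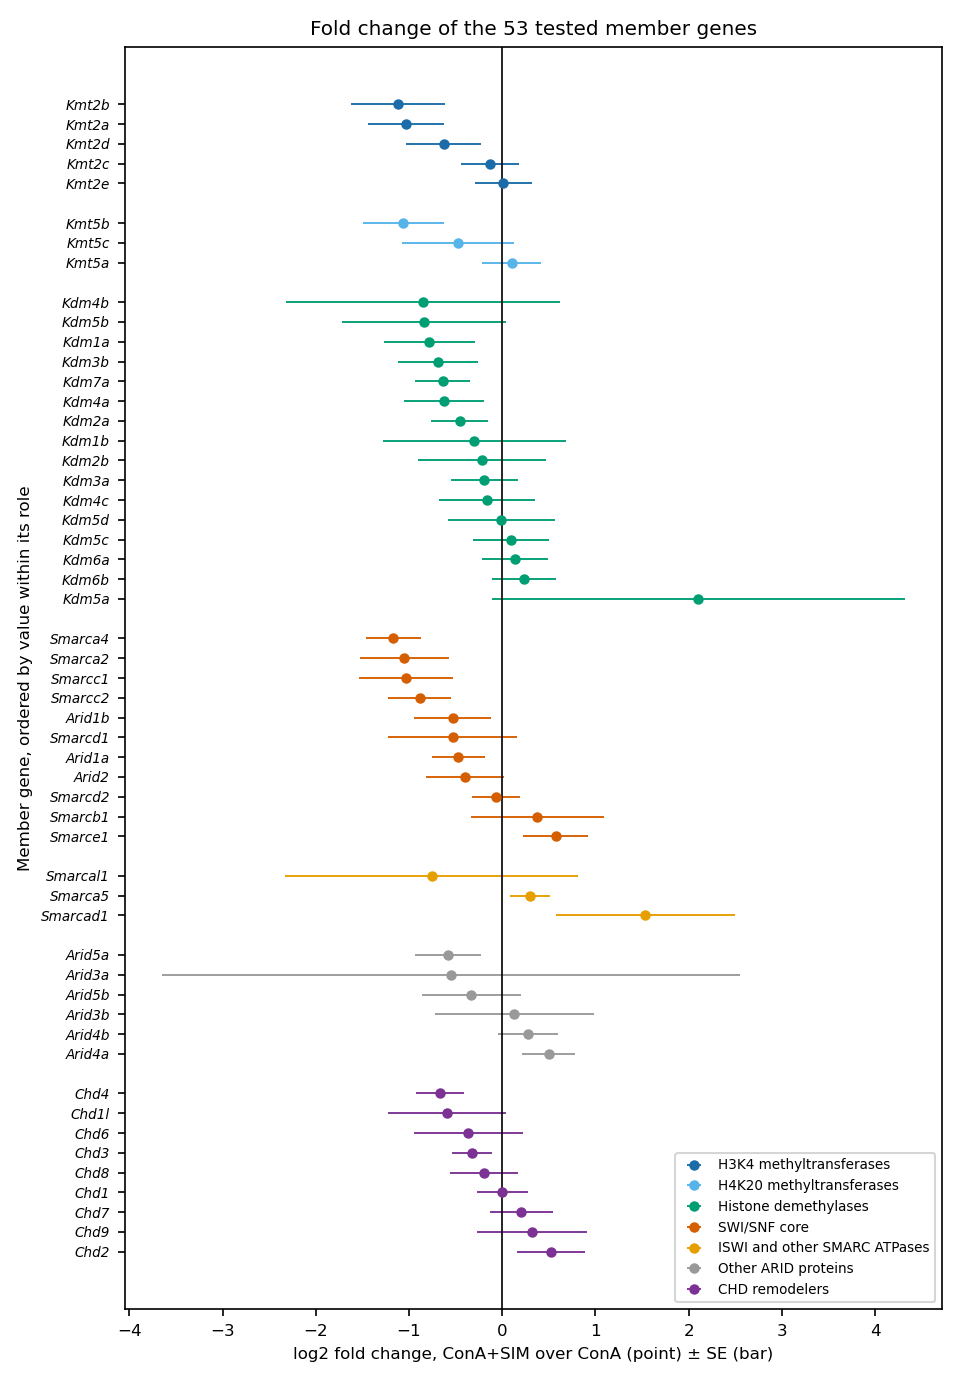
Log2 fold change of ConA+SIM over ConA (horizontal axis, points) with its SE (bars) for the 53 tested members, grouped and coloured by role. Smarca4 has the lowest value, -1.17, and the wide bars of Arid3a, Kdm5a, Smarcal1 and Kdm4b belong to genes with at least 1 library at or near 0 counts.

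The SWI/SNF core held 12 members, of which 11 were tested, 9 with lower and 2 with higher values in ConA+SIM and a median of -0.53. Smarca4 stood at 284, 160 and 210 CPM in ConA and 91.4, 92.8 and 106 CPM in ConA+SIM. Every ConA library lay above every ConA+SIM library, and the log2 fold change was -1.17 ± 0.29 (SE, adjusted p = 0.214). After length correction the value was -0.85 ± 0.32, and with GC content as well -0.38 ± 0.33. Smarca2, the alternative ATPase of the complex, stood at 72.2, 187 and 95.9 CPM in ConA and 35.2, 57.8 and 78.5 CPM in ConA+SIM (-1.05 ± 0.47, adjusted p = 0.575). The 2 groups of Smarca2 overlapped through ConA replicate 1, and the value was -0.57 without ConA replicate 2.

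The scaffold subunits Smarcc1 and Smarcc2, which hold the core of the complex together, had lower values as well. Smarcc2 stood at 119, 114 and 140 CPM in ConA and 61.7, 51.9 and 88.4 CPM in ConA+SIM, without overlap (-0.89 ± 0.34, adjusted p = 0.466). Smarcc1 stood at 180, 64.2 and 91.1 CPM against 85.3, 37.0 and 41.7 CPM (-1.03 ± 0.51, adjusted p = 0.646), where ConA replicate 1 was the highest library and the groups overlapped. Without that library the value was -0.52. Arid1a, the DNA-binding subunit of the BAF form, stood at 257, 325 and 336 CPM against 270, 145 and 247 CPM (-0.47 ± 0.28, adjusted p = 0.792). Its paralog Arid1b was at 93.2 ± 16.5 CPM in ConA and 64.4 ± 29.1 CPM in ConA+SIM (SD, n = 3 per group; -0.53 ± 0.42, adjusted p = 0.939). Without ConA+SIM replicate 2 Arid1a was at -0.24 and Arid1b at -0.96, and Arid1b was at -0.32 without ConA+SIM replicate 3. With length and GC content removed, Arid1a had a value of 0.50 and Arid1b of 0.32.

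Smaller subunits of the core went both ways. Smarce1, which carries an HMG DNA-binding domain and has a transcript of 2919 nt, stood at 89.7, 99.7 and 156 CPM in ConA and 114, 221 and 179 CPM in ConA+SIM (0.57 ± 0.35, adjusted p = 0.801). It ran from 0.35 without ConA+SIM replicate 2 to 0.88 without ConA replicate 3. Smarcb1, a core subunit lost in rhabdoid tumours, stood at 69.1, 8.76 and 74.5 CPM against 66.4, 88.3 and 43.1 CPM (0.38 ± 0.71, adjusted p = 0.999). The low ConA replicate 2 set its direction, since the value was -0.14 without it. Arid2, Smarcd1 and Smarcd2 had log2 fold changes of -0.40, -0.53 and -0.07, and Smarcd3 had 0 counts in all 6 libraries.

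**Figure D3:**
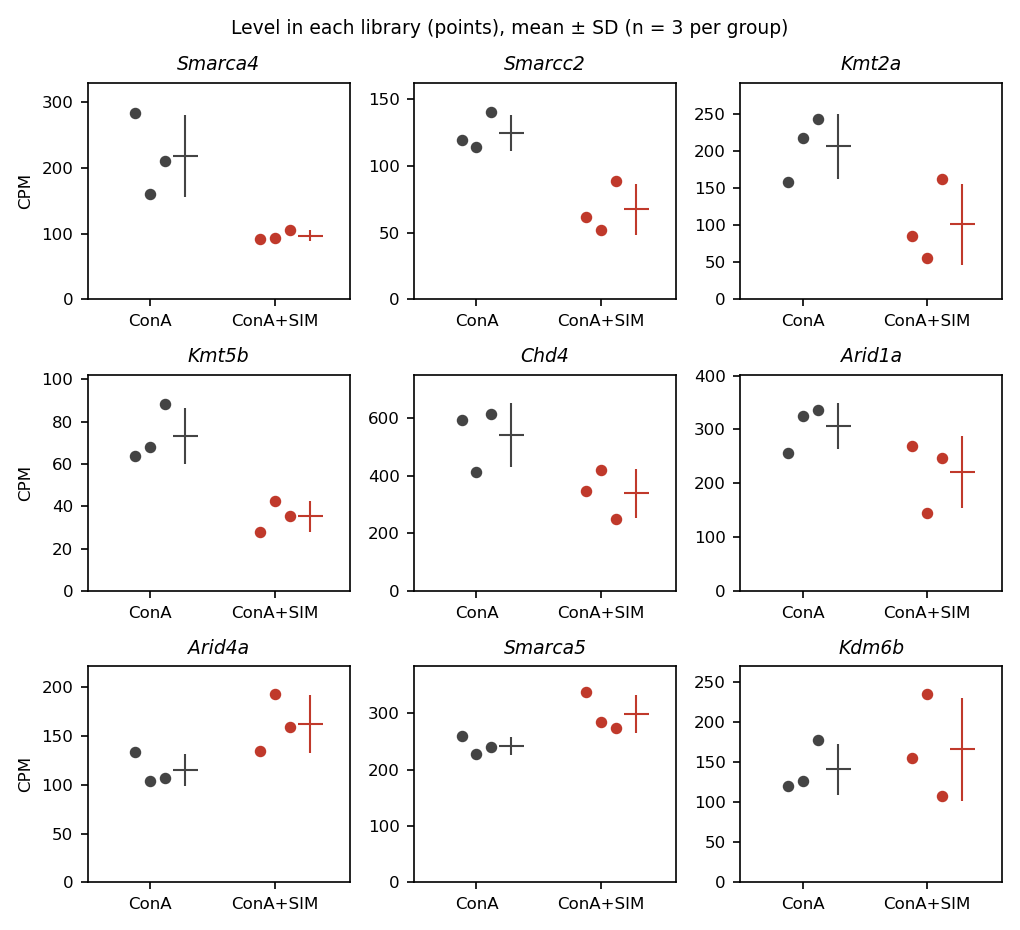
CPM (vertical axis, starting at 0) of 9 members in each library (points), with the mean and SD of the 3 libraries of each group beside them. The groups are separate in Smarca4, Smarcc2, Kmt5b, Arid4a and Smarca5 and overlap in Kmt2a, Chd4, Arid1a and Kdm6b.

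Of the 5 KMT2 genes, 4 had lower values in ConA+SIM and the median was -0.63. It was 0.06 after length correction and 0.36 with GC content as well. Kmt2a stood at 158, 217 and 244 CPM in ConA and 85.4, 55.6 and 162 CPM in ConA+SIM (-1.03 ± 0.41, adjusted p = 0.481). ConA+SIM replicate 3 lay just above ConA replicate 1. The value was -1.55 without ConA+SIM replicate 3 and -0.74 without ConA+SIM replicate 2. Kmt2b, the closest relative of Kmt2a, stood at 98.4, 117 and 129 CPM against 95.6, 26.7 and 36.4 CPM (-1.12 ± 0.50, adjusted p = 0.575). ConA+SIM replicate 1 was near the ConA libraries. The value of Kmt2b was -1.86 without ConA+SIM replicate 1 and -0.80 without ConA+SIM replicate 2. Both transcripts lie in the longest length bin, with 16461 nt for Kmt2a and 8454 nt for Kmt2b. After length correction Kmt2a was at -0.60 ± 0.38 and Kmt2b at -0.66 ± 0.54, and with GC content as well at -0.26 ± 0.38 and -0.09 ± 0.50.

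Kmt2c and Kmt2d place single methyl groups at enhancers. Kmt2d, with the longest transcript of all members (19823 nt), stood at 113, 310 and 140 CPM in ConA and 93.4, 130 and 140 CPM in ConA+SIM (-0.63 ± 0.40, adjusted p = 0.832). ConA replicate 2 alone stood apart, and the value was -0.07 without it. The value changed sign after length correction (0.06 ± 0.35) and was 0.69 ± 0.35 with GC content removed as well. Kmt2c stood at 146 ± 28.8 and 133 ± 36.7 CPM (-0.13 ± 0.31, adjusted p = 0.999), and Kmt2e, a family member without known methyltransferase activity, at 254 ± 84.8 and 255 ± 66.3 CPM.

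Among the 3 H4K20 methyltransferases, Kmt5b, which adds further methyl groups to singly methylated H4K20, stood at 63.8, 67.9 and 88.4 CPM in ConA and 27.9, 42.3 and 35.4 CPM in ConA+SIM. The groups were separate and the log2 fold change was -1.06 ± 0.43 (adjusted p = 0.505). The transcript is 3290 nt long, and the value was -0.96 ± 0.43 after length and -0.93 ± 0.43 after length and GC content. It ran from -1.23 to -0.88 over 17 alternatives. Kmt5a, which places that single methyl group and is tied to the cell cycle, stood at 101 ± 22.7 and 108 ± 12.8 CPM (0.10 ± 0.32, adjusted p = 0.999). Kmt5c stood at 46.5 ± 4.76 and 33.5 ± 16.8 CPM (-0.47 ± 0.60).

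Of 16 tested demethylases, 12 had lower and 4 higher values, with a median of -0.26. That median was -0.006 after length correction and 0.017 with GC content as well. Kdm7a, which removes methyl groups from H3K9 and H3K27, stood at 164, 236 and 132 CPM in ConA and 115, 120 and 107 CPM in ConA+SIM, without overlap (-0.64 ± 0.30, adjusted p = 0.6). Kdm2a, a CpG-binding H3K36 demethylase, was likewise separate at 127, 132 and 111 CPM against 108, 72.3 and 89.4 CPM (-0.46 ± 0.31, adjusted p = 0.856). Kdm1a, the flavin-dependent H3K4 demethylase LSD1, stood at 129, 77.9 and 92.9 CPM against 86.0, 24.9 and 63.5 CPM (-0.78 ± 0.49, adjusted p = 0.81), with overlap. After length correction Kdm1a was at -0.72, Kdm7a at -0.16 and Kdm2a at -0.02, and with GC content as well at -0.56, -0.73 and 0.13. Single libraries moved these genes: Kdm1a ran from -1.18 without ConA+SIM replicate 1 to -0.42 without ConA+SIM replicate 2, and Kdm7a was at -0.39 without ConA replicate 2.

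The groups overlapped in both KDM6 genes, which act on H3K27. Kdm6b, which is induced in many activated immune cells, stood at 120, 126 and 178 CPM in ConA and 156, 235 and 108 CPM in ConA+SIM (0.23 ± 0.34, adjusted p = 0.999). The X-linked Kdm6a stood at 57.2, 95.6 and 85.9 CPM against 81.0, 91.2 and 89.8 CPM (0.13 ± 0.35, adjusted p = 0.999). Of the H3K4 demethylases on the sex chromosomes, X-linked Kdm5c stood at 80.2 ± 16.3 and 85.5 ± 32.6 CPM. Y-linked Kdm5d was present in every library, at 28.2, 47.6 and 64.3 CPM in ConA and 40.6, 26.2 and 72.1 CPM in ConA+SIM (-0.01 ± 0.57, adjusted p = 0.999).

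Some demethylases could not be read well. Kdm5a was split over 2 rows: the plain row stood at 0, 5.79 and 7.67 CPM in ConA and 15.9, 26.5 and 15.6 CPM in ConA+SIM (2.1 ± 2.21, adjusted p = 0.999), while the copy row held 555, 188 and 272 counts in ConA and 237, 63 and 99 in ConA+SIM. With both rows summed it stood at 24.0, 15.3 and 18.4 CPM in ConA and 28.5, 30.2 and 20.9 CPM in ConA+SIM, with overlap and a value of 0.47, so its level is uncertain. Kdm4b had 2 counts in ConA+SIM replicate 2 and at least 10.9 CPM in the other libraries. Kdm8 had counts in 1 library of each group and was not tested, and Kdm4d had 0 counts throughout. The other tested demethylases, Kdm1b, Kdm2b, Kdm3a, Kdm3b, Kdm4a, Kdm4c and Kdm5b, had log2 fold changes from -0.84 to -0.17.

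The 9 tested CHD remodelers were divided, with 5 lower and 4 higher values and a median of -0.19. Their median was 0.24 after length correction and 0.45 with GC content as well. Chd4, the main ATPase of the repressive NuRD complex, stood at 595, 413 and 612 CPM in ConA and 348, 420 and 250 CPM in ConA+SIM (-0.67 ± 0.26, adjusted p = 0.457). ConA+SIM replicate 2 lay just above ConA replicate 2, and the value was -0.35 after length correction and -0.01 with GC content as well. Chd3, which can replace Chd4 in NuRD, stood at 546, 698 and 702 CPM against 527, 618 and 408 CPM (-0.33 ± 0.21, adjusted p = 0.845). Its value was -0.18 without ConA+SIM replicate 3, 0.05 after length correction and 0.54 with GC content as well.

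Chd2, which binds active genes, stood at 143, 156 and 179 CPM in ConA and 162, 371 and 156 CPM in ConA+SIM (0.53 ± 0.36, adjusted p = 0.871). Only ConA+SIM replicate 2 was above the ConA range, and without it the value was -0.0013. Chd1, which binds methylated H3K4, was at 170 ± 36.7 and 171 ± 26.9 CPM. Chd7 stood at 270 ± 51.2 and 311 ± 136 CPM. The remaining Chd1l, Chd6, Chd8 and Chd9 had log2 fold changes of -0.59, -0.36, -0.19 and 0.32, and Chd5 had 0 counts in all libraries.

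Among the ISWI and other SMARC ATPases, Smarca5, the ISWI motor that spaces nucleosomes, stood at 260, 229 and 240 CPM in ConA and 338, 284 and 275 CPM in ConA+SIM. All ConA+SIM libraries were higher, and the log2 fold change was 0.30 ± 0.21 (adjusted p = 0.89), 0.63 ± 0.24 after length correction and 0.10 ± 0.26 with GC content as well. Smarcad1, which acts behind the replication fork, stood at 15.2, 10.7 and 14.1 CPM against 79.5, 11 and 25.3 CPM (1.53 ± 0.96, adjusted p = 0.81), and the value was 0.45 without ConA+SIM replicate 1. Smarcal1, a helicase of stalled replication forks, had 0 counts in ConA+SIM replicate 2, which allows up to 3 counts, and 17.8 to 62.0 CPM elsewhere. Smarca1 had 0 counts in all libraries.

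The other ARID proteins had a median of -0.10 over 6 tested members, 3 with lower and 3 with higher values. Their median was 0.24 after length correction and 0.18 with GC content as well. Arid5a, an RNA-binding protein that stabilises inflammatory mRNAs such as that of interleukin 6, stood at 234, 333 and 212 CPM in ConA and 121, 267 and 134 CPM in ConA+SIM (-0.58 ± 0.35, adjusted p = 0.801). In both groups replicate 2 was the highest, and the groups overlapped through it. The value was -1.03 without ConA+SIM replicate 2 and -0.37 without ConA replicate 2 or ConA+SIM replicate 1. Arid4a, which binds the retinoblastoma protein, stood at 134, 104 and 107 CPM against 135, 193 and 160 CPM (0.50 ± 0.28, adjusted p = 0.748), and 0.75 ± 0.27 after length correction. Its lowest ConA+SIM library was level with the highest ConA library. Arid4b, Arid3b and Arid5b had values of 0.27, 0.13 and -0.33, Arid3a had counts in 3 libraries, and Arid3c had 0 counts in all libraries.

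After length correction 0 members passed the test, and at an unadjusted p under 0.05 there were 3 higher (5.66%; 4.52% of all tested genes), Arid4a, Chd2 and Smarca5, and 1 lower (1.89%; 2.67%), Smarca4. With GC content as well, 4 were higher (7.55%; 2.67% of all tested genes), Kdm6b (1.13 ± 0.30), Chd2, Chd7 and Chd3, and 1 lower (1.89%; 2.29%), Kdm7a, and again 0 passed.

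**Figure D4:**
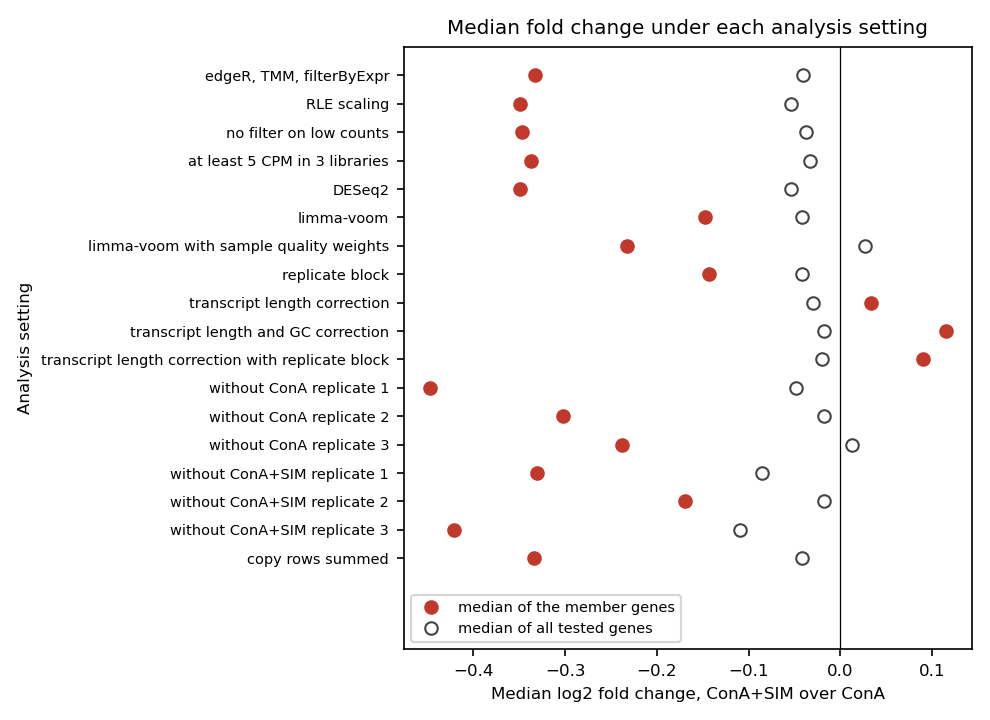
Median log2 fold change of ConA+SIM over ConA (horizontal axis) of the members (red) and of all tested genes (open circles) under each analysis setting (vertical axis). The members' median lies between -0.45 and -0.14 in every setting except the 3 that remove the trend with transcript length, where it is 0.03 to 0.12.

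Levels between genes were compared as CPM per kb of transcript. In ConA, Chd3 (89.3 ± 12.3) and Chd4 (80.6 ± 16.5) were the most abundant members and did not differ beyond their spread. Next were Smarcd2 (56.3 ± 2.62) and Arid5a (56 ± 13.9), which did not differ either, and then Smarca5 (39.7 ± 2.61) and Smarce1 (39.4 ± 12.2). Among the KMT2 genes, Kmt2e stood at 34.7 ± 11.6, within its SD of Smarca5 and Smarce1. The others were lower per length, with Kmt2b at 13.6 ± 1.82, Kmt2a at 12.5 ± 2.66, Kmt2c at 9.72 ± 1.93 and Kmt2d at 9.45 ± 5.39. In ConA+SIM, Chd3 (71.3 ± 14.5) was again first, followed by Smarce1 (58.7 ± 18.5), Smarcd2 (53.8 ± 7.32), Chd4 (50.7 ± 12.7) and Smarca5 (48.9 ± 5.55), none of which was apart from its neighbour by more than its SD.

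Paralogs that compete for a place in the same complex, or share a task, were set against each other within each library, which needs no scaling between libraries. Smarca4 made up 78.6%, 44.3% and 67.1% of the summed CPM per kb of Smarca4 and Smarca2 in ConA and 70.7%, 59.9% and 55.7% in ConA+SIM. The groups overlapped, so the balance of the ATPases could not be told apart at this spread. Chd4 made up 47.3% ± 7.62 of Chd4 and Chd3 in ConA and 41.4% ± 1.28 in ConA+SIM, and Arid1a 81.7% ± 4.86 and 81.3% ± 12.1 of Arid1a and Arid1b. All 7 pairs examined overlapped between the groups.

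**Figure D5:**
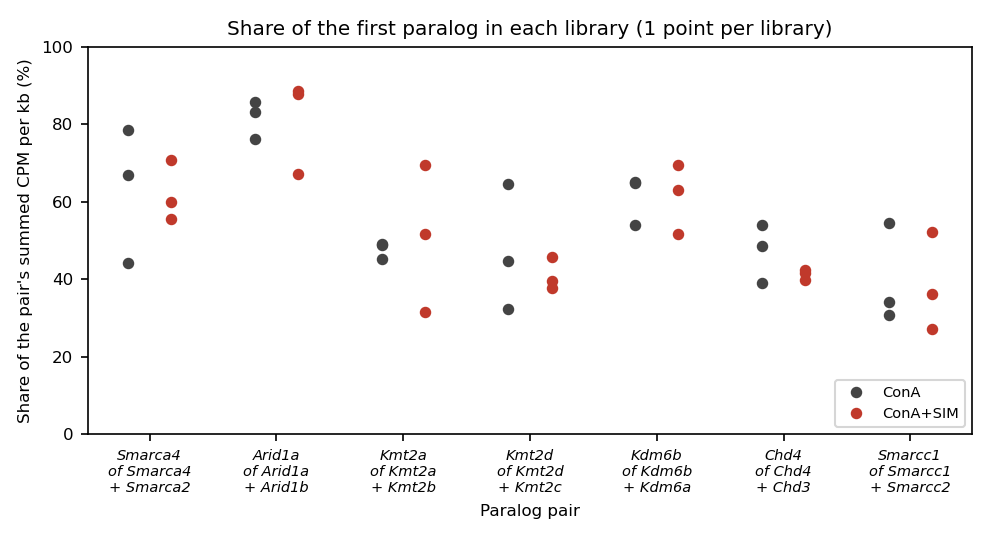
Share of the first named paralog in the pair's summed CPM per kb (vertical axis, percent) in each ConA (grey) and ConA+SIM (red) library, 1 point per library, for 7 pairs. The groups overlap in every pair.

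Partners of the members were followed in 6 lists with 84 tested genes, of which 52 had lower and 32 higher values and 0 passed the edgeR test. At an unadjusted p under 0.05, 7 were lower (8.33%; 3.54% of all tested genes) and 3 higher (3.57%; 5.31%). DESeq2 called 4 lower (4.76%; 1.89% of all tested genes) and 3 higher (3.57%; 3.39%). The 3 that DESeq2 called higher were Hdac2, Eed and Hells. Hdac2, a histone deacetylase of NuRD, stood at 68.8 ± 20.6 CPM in ConA and 158 ± 59.6 CPM in ConA+SIM (1.20 ± 0.40, edgeR adjusted p = 0.383). Eed, the Polycomb subunit that reads H3K27 methylation, stood at 68.2 ± 11.2 and 143 ± 41.6 CPM (1.07 ± 0.34, adjusted p = 0.368), and Hells, a remodeler needed for DNA methylation, at 77.5 ± 17.5 and 167 ± 19.4 CPM (1.11 ± 0.30, adjusted p = 0.263). After length correction Hdac2 was at 1.06, Eed at 0.95 and Hells at 1.42, and with GC content as well at 0.69, 0.87 and 0.56.

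The other histone lysine methyltransferases and Polycomb genes had the lowest median of the 6 lists, -0.67, with 15 of 17 tested genes lower. The median was -0.23 after length correction and -0.14 with GC content as well. Nsd3, an H3K36 methyltransferase, stood at 356 ± 90.9 and 213 ± 44.3 CPM (-0.74 ± 0.27, adjusted p = 0.412), and at -0.27 after length correction. Ezh2, the catalytic subunit of Polycomb complex PRC2, was chosen after its values were seen. It stood at 189 ± 50.6 and 104 ± 42.1 CPM (-0.86 ± 0.38, adjusted p = 0.552), while its value after length correction was -0.84 and its transcript is 2787 nt long. With GC content as well the value of Ezh2 was -1.15.

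In the COMPASS list of KMT2 partners 8 of 13 tested genes were lower, with a median of -0.11 that ran from -0.38 without ConA replicate 2 to 0.079 without ConA replicate 3 and was 0.12 with length and GC content removed. Hcfc1 stood at -0.92 ± 0.37 (adjusted p = 0.494; lower by DESeq2, adjusted p = 0.0446), and at -0.51 after length correction and -0.05 with GC content as well. Rbbp5, a core subunit, stood at -1.31 ± 0.62 (adjusted p = 0.622), at -1.28 after length correction and at -1.30 with GC content as well. The NuRD list had a median of -0.24, which was -0.082 without ConA replicate 3, with Gatad2b at 144 ± 26.1 and 68.6 ± 7.25 CPM (-1.07 ± 0.31, adjusted p = 0.3), a DESeq2 call, and -0.69 after length correction. The list of other remodeler ATPases and subunits had a median of -0.10, from -0.26 without ConA replicate 3 to -0.046 without ConA replicate 2. In it Ep400 stood at 161 ± 40.1 and 62.5 ± 10.7 CPM (-1.36 ± 0.33, adjusted p = 0.197), lower by DESeq2 too, and at -0.89 after length correction and -0.52 with GC content as well. The other SWI/SNF subunits, by contrast with the core, had 11 of 15 genes with higher values and a median of 0.21 (0.34 without ConA+SIM replicate 3), including Brd9 (0.54 ± 0.34) and Bcl7b (1.35 ± 0.87), and the difference between the core and these subunits was not tested. Their median transcript length was 3625 nt, against 5717 nt in the core. After length correction the median was 0.37 for these subunits and -0.06 for the core, and with GC content as well 0.30 and 0.005. Among other JmjC proteins, with a median of 0.02 over 7 tested genes, Phf2 was at -0.87 ± 0.39 (adjusted p = 0.578) and Y-linked Uty at 1.41 ± 0.74 (adjusted p = 0.687). After length correction Phf2 was at -0.54 and Uty at 1.69, and with GC content as well at -0.07 and 0.52.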

How the data were processed

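RNA sequencing measured gene expression in 6 libraries of sorted liver CD4+ T cells. HISAT2 2.1.0 and GRCm38 were used, per the submitters' processing notes. Counter, strand setting and annotation were not given in the sources used here. Raw counts per gene, not normalized, were deposited. Each column carries the title of 1 sample, and 0 columns were left unused. Genes were kept with filterByExpr, scaled with TMM factors and tested with the robust quasi-likelihood test of edgeR 4.0.16 in R 4.3.3, ConA+SIM over ConA, with Benjamini-Hochberg adjustment over all genes tested. SEs are the absolute log2 fold change divided by the square root of F. The limit for a count of 0 is 3 counts (95%), and it covers counting error only.

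Transcript length and GC content came from GENCODE M21 on GRCm38 (1 principal transcript per gene, 99.5% of tested genes), and coordinates from RefSeq GRCm38.p6. Trends were splines (5 degrees of freedom) fitted per library and used as offsets. The members and lists were chosen with earlier results of these data known. Named genes were the 10 lower and 6 higher members with the smallest p, 19 fixed members and the 2 partners per list with the smallest p; other members are given to account for all. DESeq2 1.42.0 and limma 3.58.1 were alternatives. The procedure was tested on simulated counts with far less spread between libraries than these data, whose common biological coefficient of variation was 1.12. That test therefore cannot show how the procedure performs at the spread of these libraries.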

Additional observations from a re-analysis of the deposited data

How the results depend on the processing

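Over 17 alternatives 0 members were called, except 2 by DESeq2. In all, 57 genes were called, against 555 by DESeq2, 128 by limma-voom, 137 with quality weights, 0 to 3 without 1 library, and 0 with the replicate block and with each correction for length (with GC, or with the replicate block). The replicate numbers pair nothing in the labels: deviations of same-numbered samples correlated at 0.0111, 0.00878 and 0.0328, and 2 of 6 samples correlated best with their own number. Under the replicate block the members' median was -0.14. The members' median was 0.033 after length correction, 0.12 with GC and 0.090 with the block, and 25, 20 and 23 of 53 had lower values. Without 1 library it ran from -0.45 to -0.17. The JmjC list's median was -0.22 after length correction, -0.26 with the block and -0.26 to 0.19 without 1 library. That of the other methyltransferases and Polycomb was -0.23, -0.14 with GC and -0.25 with the block.

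Of the values of 28 named members, 444 kept their direction and, where an adjusted p was given, their side of the threshold. Another 2 passed it (Smarca4 and Kmt2a by DESeq2), and 30, none of them called, changed sign. With length and GC correction these were Arid1a (0.50), Arid1b (0.32), Arid5a (0.064), Chd3 (0.54), Kdm5d (0.16), Kmt2c (0.51) and Kmt2d (0.69). With length correction Chd3 (0.047), Kdm5d (0.38), Kmt2c (0.35) and Kmt2d (0.057) did, and with the block as well they stood at 0.044, 0.35, 0.39 and 0.067. With quality weights Kdm5d stood at 0.047 and Kdm6b at -0.069. Without 1 library Chd2 ran from -0.0013 to 0.74, Kdm5c from -0.11 to 0.38, Kdm5d from -0.48 to 0.31, Kdm6a from -0.067 to 0.27, Kdm6b from -0.096 to 0.47, Kmt2c from -0.38 to 0.031, Kmt5a from -0.087 to 0.26 and Smarcb1 from -0.14 to 0.78. Beyond what removing length does by construction, the cause of these changes was not tested. Summing copy rows was added after seeing the data and left the members' median at -0.33. The median SE on the log2 scale was 0.41 for members and 0.76 for all tested genes.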
